A study of Mus musculus with 8 samples.

Results

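The skin barrier lipid and cornification genes described here are 10 genes that build or remodel the outermost layer of the epidermis: Cers3, Acer1, Alox12b, Aloxe3, Alox15, Tgm1, Ppl, Crct1, Asprv1 and Klk7. They are 10 of the 19938 genes measured, and each was read by 1 probe set annotated to its symbol, so the choice of the brightest probe set per gene did not come into play. The 10 were chosen by their differences and time courses in these same arrays, so their own values are a description, and counts of limma's calls among them support nothing. Their levels were measured in mouse cells named MaF pre-iPSC9P2, a single pre-iPSC clone (C9) of partly reprogrammed cells, kept on feeder cells in a medium for mouse embryonic stem cells. The untreated group had 4 arrays and no vitamin C, and the vitamin C group had 4 arrays and vitamin C (ascorbate) at 50 µg/ml from day 2 onwards. Each group had 1 array on each of days 3, 4, 5 and 6, so a difference on a single day has no replicate. Nothing in the labels tells whether different days were different cultures, and p-values then cover no more than the spread among the 8 arrays, which may be technical.

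In the epidermis, keratinocytes that move outwards replace their membrane with a cornified envelope, a shell of cross-linked proteins coated with ceramides. Enzymes make ultra-long-chain ceramides, lipoxygenases oxidise the linoleate these carry, and a transglutaminase joins lipids and proteins to the shell. Proteases then process filaggrin and cut the junctions that hold the dead cells together. Most of these genes are known as late markers of keratinocyte differentiation, while the cells studied here are labelled as pre-iPSCs.

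Promoter sequences were available in RefSeq (build GRCm38.p6) for 6 of the 10 genes, in 7 windows, with no entry for Aloxe3, Alox15, Ppl and Crct1. The 250 bases before the start are shown, 5′ to 3′, for both proteases, for a lipoxygenase and for Cers3, the only one of the 10 that ended lower than it began without vitamin C. Capitals mark CCACCC or its reverse complement GGGTGG, the letters of a motif of the KLF factors, and in Alox12b the letters GCCNNNGGC of a TFAP2 motif. The window of Cers3 lies inside the listed span of the gene.

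Klk7 promoter, chr7:43811044-43811293, + strand: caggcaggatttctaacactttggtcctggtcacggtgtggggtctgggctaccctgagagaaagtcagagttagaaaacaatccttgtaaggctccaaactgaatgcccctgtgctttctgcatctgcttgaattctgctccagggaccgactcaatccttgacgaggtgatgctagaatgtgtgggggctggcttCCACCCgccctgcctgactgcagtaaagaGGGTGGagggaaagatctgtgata

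Asprv1 promoter, chr6:86627924-86628173, + strand: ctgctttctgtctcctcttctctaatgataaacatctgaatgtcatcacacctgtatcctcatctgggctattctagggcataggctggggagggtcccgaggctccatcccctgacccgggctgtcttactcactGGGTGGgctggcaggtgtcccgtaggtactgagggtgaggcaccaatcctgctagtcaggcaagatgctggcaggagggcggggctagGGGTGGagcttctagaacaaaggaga

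Alox12b promoter, chr11:69156822-69157071, + strand: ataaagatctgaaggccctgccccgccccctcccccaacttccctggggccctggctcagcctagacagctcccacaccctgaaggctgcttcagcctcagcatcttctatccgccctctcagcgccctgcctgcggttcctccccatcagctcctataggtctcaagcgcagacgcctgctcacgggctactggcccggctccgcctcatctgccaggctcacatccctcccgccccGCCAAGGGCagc

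Cers3 promoter, chr7:66743254-66743503, + strand: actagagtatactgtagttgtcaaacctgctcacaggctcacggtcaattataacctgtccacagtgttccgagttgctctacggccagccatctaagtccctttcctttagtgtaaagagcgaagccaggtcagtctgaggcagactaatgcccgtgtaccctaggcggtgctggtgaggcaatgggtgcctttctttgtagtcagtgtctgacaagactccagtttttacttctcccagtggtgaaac

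The KLF letters, searched on both strands, occurred in 5 of the 7 windows (both windows of Tgm1, and those of Acer1, Asprv1 and Klk7), against 28.1% of 32851 promoter windows of the same length. The TFAP2 letters occurred in 2 of the 7 (Acer1 and Alox12b), against 13.7% of all windows. The ZEB letters CACCTG occurred in 1, that of Asprv1, against 17.2%. The AP-1 letters TGANTCA and the Grainyhead letters AACCGGTT occurred in 0 of the 7, against 6.75% and 0.116% of all windows. The windows held between 4 and 11 CpG dinucleotides, against a median of 6 over all windows. A match is only a match of letters within this window.

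All values are RMA expression values on a log2 scale as the authors deposited them, and a difference is the array with vitamin C minus the untreated array of the same day. All 10 genes were at least 2-fold higher with vitamin C on day 5, against 0.963% of all genes. None reached 2-fold on day 3 (0.371% of all genes), 3 did on day 4 (0.642%) and 8 on day 6 (1.51%). From day 3 to day 6 the median difference of the 10 ran through 0.51, 0.81, 1.65 and 1.58, while the median of all genes lay between -0.03 and 0.02. The gap between the groups was thus wider on the later days, 5 and 6, than on the earlier ones. Because the genes were picked with these differences known, the counts say nothing beyond the choice.

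**Figure D1:**
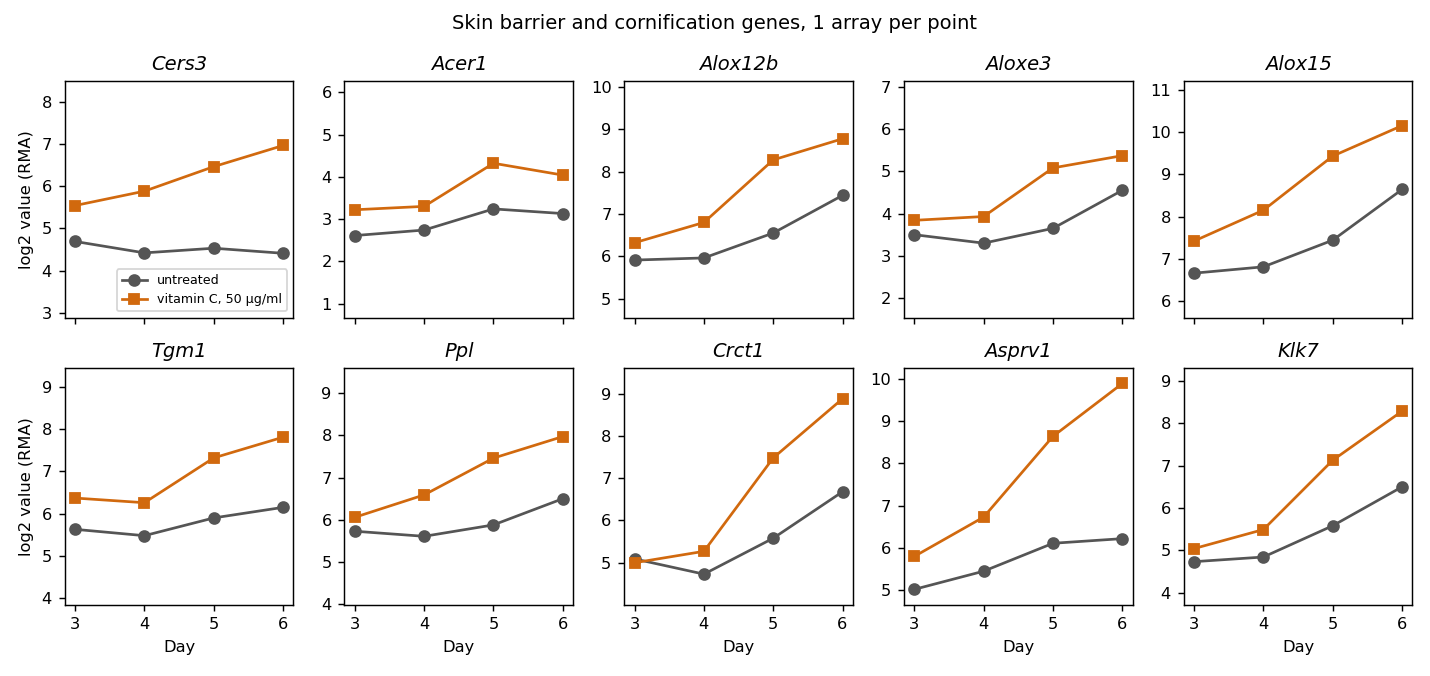
Log2 expression value (vertical axis, a span of 5.6 in each panel) of the 10 genes by day (horizontal axis), with 1 array per point, untreated in grey and vitamin C in orange. Only Cers3 was lower on day 6 than on day 3 without vitamin C.

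Cers3, the ceramide synthase that makes the ultra-long-chain ceramides of skin, read 4.69, 4.42, 4.53 and 4.41 on days 3, 4, 5 and 6 without vitamin C. With vitamin C it read 5.54, 5.88, 6.46 and 6.96. The 2 groups did not overlap, and the arrays with vitamin C climbed day by day while the untreated ones stayed flat. The mean difference was 1.70 ± 0.72 (log2, SD of 4 daily differences), or 3.24-fold, and on day 6 it was 2.55.

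Acer1, the alkaline ceramidase of epidermis that splits ceramide, read 2.61, 2.74, 3.24 and 3.13 on days 3 to 6 without vitamin C. The arrays with vitamin C gave 3.22, 3.30, 4.32 and 4.04. The highest untreated array just exceeded the lowest array with vitamin C, and both groups were highest on day 5. Its mean difference of 0.79 ± 0.25 (log2, SD of 4 daily differences) was the smallest of the 10 and also the steadiest over days.

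Of 8 other ceramide synthase and ceramidase genes, 0 passed limma in the effect over days, the growth of the difference or the slopes with and without vitamin C (adjusted p below 0.05 over all genes). At an unadjusted p under 0.05 there were 1, 2, 1 and 2. The gene of the effect over days was the ceramidase gene Acer3 at -0.46 ± 0.15 (moderated SE, limma adjusted p = 0.237), followed by Asah2 at -0.22. The median of the 8 was -0.11, against -0.01 over all genes. Cers2, Cers4, Cers5 and Cers6, which make other chain lengths, lay between -0.17 and -0.10.

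Alox12b, the R-lipoxygenase that oxidises ceramide-bound linoleate, read 5.91, 5.96, 6.55 and 7.44 on days 3 to 6 without vitamin C. With vitamin C the values were 6.32, 6.80, 8.28 and 8.78. Both groups climbed, and on day 5 the array with vitamin C lay above every untreated array. The mean difference was 1.08 ± 0.58 (log2, SD of 4 daily differences), from 0.41 on day 3 to 1.73 on day 5 and 1.35 on day 6.

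Aloxe3, which converts the product of Alox12b to an epoxy-alcohol, read 3.50, 3.30, 3.65 and 4.55 without vitamin C on these days. With vitamin C it read 3.84, 3.93, 5.08 and 5.37. Both groups were highest on day 6, and the gap was widest on day 5 (1.43) and smaller on day 6 (0.82). The mean difference was 0.80 ± 0.46 (log2, SD of 4 daily differences).

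Alox15, a lipoxygenase of arachidonate and linoleate known mostly from macrophages and eosinophils, read 6.66, 6.81, 7.44 and 8.64 without vitamin C. With vitamin C it read 7.42, 8.15, 9.43 and 10.15. It had the largest untreated climb of the 10, 1.98 from day 3 to day 6, and the untreated array of day 6 lay above 2 arrays with vitamin C. Its mean difference was 1.40 ± 0.51 (log2, SD of 4 daily differences), or 2.63-fold.

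Both epidermal lipoxygenase genes and Alox8 lie next to each other on chromosome 11, and Alox15 lies near Alox12 and Alox12e on the same chromosome. Of the 5 other genes of the lipoxygenase family (Alox5, Alox8, Alox12, Alox12e and the Alox5 partner Alox5ap), 0 passed limma in the same comparisons, with 1, 0, 1 and 2 at an unadjusted p under 0.05. Over days that was Alox5ap at 0.47 ± 0.14 (moderated SE, limma adjusted p = 0.191). Alox8, the direct neighbour of Alox12b, read between 5.44 and 5.97 without vitamin C and between 5.63 and 5.98 with it. Its difference was 0.24 ± 0.11 (moderated SE, limma adjusted p = 0.422), and Alox12 had 0.27 and Alox12e 0.15. On the 16 marker genes of myeloid cells and eosinophils, cells in which Alox15 is known, 0 passed limma over days (2 at an unadjusted p under 0.05, 1 in each direction). The summed linear signal of the list ran from 183 to 311 without and from 197 to 494 with vitamin C. In the vitamin C arrays 5.25% of all genes rose with day and 3.39% fell. Of the 16, Csf1r and Cd68 rose in them by 1.09 and 0.79 per day, and Il5ra fell by 0.32. These 3 calls were lost without day 6, and that of Il5ra also without day 3 or day 5. Their part in the values of Alox15 was not tested.

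Tgm1, the transglutaminase that cross-links the envelope, read 5.63, 5.48, 5.90 and 6.15 on days 3 to 6 without vitamin C. The values with vitamin C were 6.37, 6.26, 7.32 and 7.81. As with Cers3, the groups did not overlap, and the lowest array with vitamin C was that of day 4. The mean difference was 1.15 ± 0.46 (log2, SD of 4 daily differences), and it was 1.66 on day 6.

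Ppl, which encodes periplakin, a link between keratin filaments and the envelope, read 5.73, 5.61, 5.88 and 6.50 without vitamin C. With vitamin C it read 6.06, 6.59, 7.46 and 7.97. The groups overlapped only in that untreated day 6 lay above day 3 with vitamin C. The mean difference was 1.09 ± 0.57 (log2, SD of 4 daily differences).

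Crct1, a small cysteine-rich protein gene of the epidermal differentiation complex, read 5.09, 4.73, 5.58 and 6.68 without vitamin C. With vitamin C it read 5.00, 5.27, 7.48 and 8.88. It was the only one of the 10 that was not higher with vitamin C on day 3, at -0.10, and its difference then reached 1.90 on day 5 and 2.20 on day 6. The mean was 1.13 ± 1.09 (log2, SD of 4 daily differences), with an SD nearly as large as the mean.

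Asprv1, an aspartic protease of the granular layer that cuts profilaggrin, read 5.02, 5.45, 6.11 and 6.22 without vitamin C. With vitamin C it read 5.80, 6.73, 8.64 and 9.89. It had the widest gap of the 10, 3.67 on day 6 or 12.7-fold, and the largest climb with vitamin C, 4.09 from day 3 to day 6. The untreated arrays climbed by 1.20 and levelled off after day 5. Its mean difference was 2.06 ± 1.30 (log2, SD of 4 daily differences).

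Klk7, the chymotrypsin-like kallikrein that cuts the junctions of the cornified layer, read 4.73, 4.84, 5.58 and 6.50 without vitamin C. With vitamin C it read 5.04, 5.49, 7.13 and 8.29. It climbed in both groups, by 1.77 without and 3.26 with vitamin C from day 3 to day 6. The mean difference was 1.08 ± 0.71 (log2, SD of 4 daily differences).

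**Figure D2:**
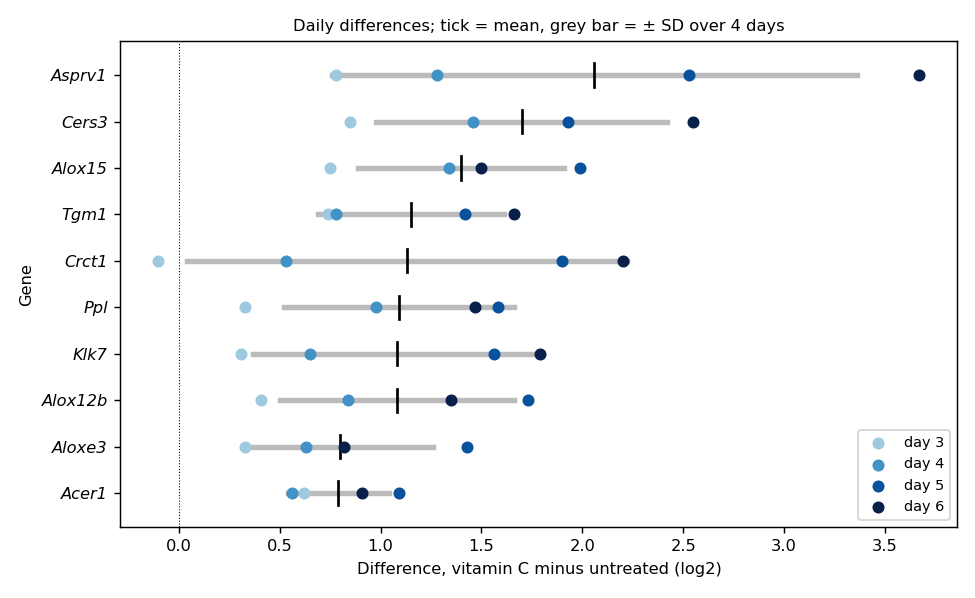
Difference between the arrays with and without vitamin C (horizontal axis, log2) for each of the 10 genes (vertical axis), with 1 point per day, the mean as a black tick and ± SD over the 4 days as a grey bar. Day 3 lay lowest in all but Acer1, and day 6 was widest for Asprv1 at 3.67.

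Among themselves the 10 fell into different shapes over time. Day 6 was the day of the widest gap for Cers3, Tgm1, Crct1, Asprv1 and Klk7, and day 5 for Acer1, Alox12b, Aloxe3, Alox15 and Ppl. On day 5 with vitamin C all 10 genes lay above their untreated level of day 6, against 48.1% of all genes, and on day 4 with vitamin C 5 did (Cers3, Acer1, Tgm1, Ppl and Asprv1), against 50.0%. With vitamin C 8 of the 10 were higher on each later day (7.59% of all genes), the exceptions being Acer1 and Tgm1. Without vitamin C 4 were, Alox12b, Alox15, Asprv1 and Klk7 (8.83%). In 9 of the 10 the arrays with vitamin C were higher on all 4 days (9.29% of all genes), and in 2, Cers3 and Tgm1, the groups did not overlap (2.10%).

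Across the 8 arrays the correlations between pairs of the 10 genes had a median of 0.934 (45 pairs, Pearson's r), with 0.699 for the lowest and 0.992 for Alox12b with Alox15. Cers3 had the lowest median of its 9 pairs, 0.784, and the 36 pairs without it lay between 0.822 and 0.992. The points of all these pairs are the same 8 arrays and share their course in time. The genes most like single members among all genes that varied included simple epithelial genes. For Crct1 they were the keratin genes Krt8 (r = 0.998 over 8 arrays) and Krt7 (0.997), for Klk7 Krt18 (0.996) and Krt8 (0.994). For Alox12b they were the kinase gene Prkch (0.998) and the claudin gene Cldn4 (0.994), and for Alox15 the sodium channel subunit gene Scnn1a (0.994) and Alox12b (0.992).

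Cers3 was most like the transcription factor genes Gata2 (0.988) and Grhl2 (0.981), which read between 4.22 and 4.45 and between 4.05 and 4.21 in the untreated arrays. Tgm1 was most like Bex1 (0.987) and the pluripotency gene Dppa4 (0.982), and Asprv1 like Aldh3b2 (0.993) and the arginase gene Arg1 (0.987). Ppl was most like the apoptosis gene Bcl2l11 (0.997) and the peptide transporter gene Slc15a1 (0.997). Acer1 was most like Fbxo36 (0.980) and Crybg2 (0.979), and Aloxe3 like Isg20 (0.991) and Alox12b (0.986). These are the highest correlations over all genes that varied, and they describe likeness only.

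The test across all genes places the 10 among the genes called, as a description of how they were chosen. In the vitamin C effect over days, limma called 150 of 19938 genes (0.752%), of which 43 were lower (0.216%) and 107 higher (0.537%), and 6 of the 10 were among the higher ones: Cers3, Acer1, Alox12b, Alox15, Tgm1 and Ppl. Aloxe3, Crct1, Asprv1 and Klk7 were not. Leaving out day 3 turned the count of 6 into 10, and leaving out day 4, 5 or 6 into 0, 0 or 4. All 10 stayed higher at an unadjusted p under 0.05 in each case. In either direction 2590, 2093, 1794 and 2208 of all genes did so without day 3, 4, 5 and 6. The calls over all genes moved with these settings too, as given at the end. The 4 without day 6 were Cers3, Alox15, Tgm1 and Asprv1, the last of which was not among the 6. With no term for day in the model the count was 1, with 1643 of all genes at an unadjusted p under 0.05. The difference grew with day past the threshold in 1 of the 10, Asprv1, by 0.99 ± 0.12 per day (log2, SE), among 13 genes called (0.0652%), and in 0 genes when any single day was left out (limma, with 1320 to 2439 genes at an unadjusted p under 0.05). With the replicate block, which fits the daily differences on day, it was 2 of the 10, Asprv1 and Crct1, the latter with 0.83 per day. Cers3, with 0.56 per day, was called without the dimmest 25% of genes and with trend and robust options (limma adjusted p = 0.0455 and 0.026).

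For the course in time without vitamin C, 4 of the 10 were called by limma, Alox12b, Alox15, Asprv1 and Klk7, with slopes of 0.52, 0.66, 0.43 and 0.61 per day, among 349 genes called (1.75%), 156 that climbed (0.782%) and 193 that fell (0.968%). The all-gene counts became 130 and 255 with the arrays centred on their medians. With vitamin C 9 of the 10 were called, all but Acer1, with slopes from 0.48 for Cers3 to 1.42 for Asprv1 per day, among 1046 genes that climbed (5.25%), while 676 fell (3.39%). Without day 3 the count of 4 became 3, Alox15, Klk7 and, newly, Crct1, while the calls of Alox12b and Asprv1 were lost. It became 1, Alox15, without day 5 and 0 without day 6. The 9 became 5 without day 6. With vitamin C 9 of the 10 gained at least 2-fold from day 3 to day 6 (3.30% of all genes), and without it 6 did (1.18%).

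The other genes of cornification were taken from lists that leave the 10 out. All lists used here, of pathways and of cell types, were drawn up with earlier results of these data known. Their counts are a description and no independent support. Of 51 measured genes of cornified envelope proteins and their cross-linkers, 17 rose with day in the arrays with vitamin C and 0 fell (limma, adjusted p below 0.05), beside 5.25% of all genes that rose. Without vitamin C 1 rose, the corneodesmosin gene Cdsn (0.56 per day, steeper than its slope with vitamin C), and 1 fell, Lce3b (-0.37). The 17 were Sprr1b (0.90 per day), Sprr2d (0.89), Sprr1a (0.83), Kprp (0.76), Lce3c (0.73), Lce3f (0.48), Sprr2h (0.48), Sprr2g (0.47), Dmkn (0.45), Tchh (0.44), Lce3a (0.42), Cdsn (0.40), Tgm2 (0.40), Sprr3 (0.34), Sprr2i (0.29), Evpl (0.28) and Lce1b (0.27). Small proline-rich (Sprr) and late cornified envelope (Lce) genes encode the shell's cross-linked filler proteins, and Evpl encodes envoplakin, the partner of periplakin.

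Sprr1a read 4.23, 4.52, 5.03 and 5.59 without and 4.99, 4.37, 6.55 and 7.04 with vitamin C on days 3 to 6, and the groups overlapped. In the vitamin C effect over days 0 of the 51 passed limma, while 16 were higher and 2 lower at an unadjusted p under 0.05. The median difference was 0.18, against -0.01 over all genes. The count of 17 became 7 without day 5, 0 without day 6 and 9 without the dimmest 25% of genes, which kept 23 of the 51. The Sprr2 and Lce families hold near-identical copies, so a value may mix several members.

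Of 32 genes of barrier lipid synthesis and transport, 1 was called higher with vitamin C in the effect over days. This was Sdr9c7, at 0.97 ± 0.17 (moderated SE, limma adjusted p = 0.0459). It encodes a dehydrogenase that acts after Alox12b and Aloxe3 in the same route, and it read 3.97, 3.55, 3.77 and 3.67 without and 4.22, 4.86, 4.83 and 4.95 with vitamin C. All 4 arrays with vitamin C lay above all untreated arrays. In the course with vitamin C 3 of the 32 rose and 1 fell, beside 5.25% and 3.39% of all genes. The phospholipase gene Pla2g2f (0.36 per day), the lipid transporter gene Abca12 (0.23) and the saposin gene Psap (0.27) rose. The serine palmitoyltransferase subunit gene Sptlc3 fell (-0.24). These 4 calls were lost without day 5 or without day 6, and that of Sdr9c7 was lost in 5 of 11 alternative settings, leaving out day 4, 5 or 6 among them.

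Of 30 desquamation proteases and their inhibitors, 1 was called higher with vitamin C in the effect over days. This was the kallikrein gene Klk11, at 0.65 ± 0.11 (moderated SE, limma adjusted p = 0.0423). It read at most 4.62 without and at least 5.04 with vitamin C, so the groups did not overlap. In the course with vitamin C 11 rose and 0 fell, beside 5.25% and 3.39% of all genes. The steepest was Prss8 (1.10 per day), the membrane protease prostasin, followed by the inhibitor gene Spink5 (0.69), known for restraining kallikreins, Tmprss11e (0.63), Klk8 (0.62), Klk6 (0.54), Wfdc5 (0.50), Serpinb6c (0.44), Klk9 (0.40), Ctsl (0.37), Ctsd (0.34) and St14 (0.30). Without vitamin C Prss8 alone rose, by 0.54 per day. The 11 became 1 without day 6, and the call of Klk11 was lost in 4 of 11 settings, leaving out day 4, 5 or 6 among them.

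Klk7 lies on chromosome 7 in a row of kallikrein genes, and the 3 measured genes on either side were Klk10, Klk9 and Klk8 and Klk6, Klk5 and Klk4. Klk8 differed by 0.13, 0.49, 0.94 and 1.40 on days 3 to 6, Klk6 by 0.25, 0.69, 0.87 and 1.53, and Klk10 by 0.17, 0.28, 0.74 and 1.42, each wider on every later day, as for Klk7. Klk9 differed by -0.18, 0.34, 0.15 and 1.17, with most of its gap on day 6. Klk4, the farthest of the 3 on its side, stayed at -0.09 ± 0.11 over days (moderated SE, limma adjusted p = 0.807) and Klk5 at 0.37 (adjusted p = 0.17). Of the 6, 0 passed limma over days (4 at an unadjusted p under 0.05, all higher), and Klk6, Klk8 and Klk9 passed in the course with vitamin C. Kallikrein genes are close relatives, and cross-reading between their probes was not tested.

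**Figure D3:**
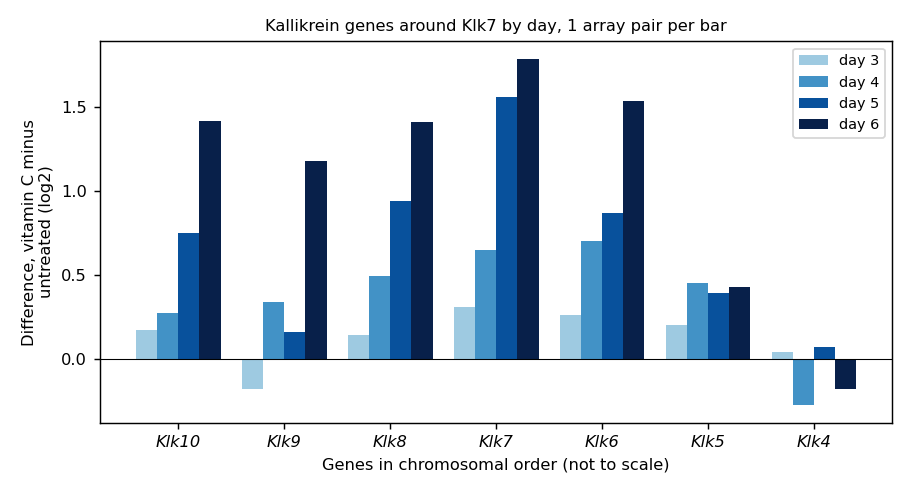
Difference between the arrays with and without vitamin C (vertical axis, log2) for Klk7 and the 3 measured genes on either side in chromosomal order (horizontal axis, not to scale), with 1 bar per day. Klk7 reached 1.79 on day 6, Klk6 1.53, Klk10 1.42, Klk8 1.40 and Klk9 1.17, while Klk4 stayed near 0.

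Around all 10 genes there were 54 different neighbours that are not members, 3 measured genes on either side. In the vitamin C effect over days 1 of them passed limma, Acsbg3, an acyl-CoA synthetase gene near Acer1 on chromosome 17, with 1.55 ± 0.17 (moderated SE, adjusted p = 0.00827). It read 2.99, 3.15, 2.65 and 2.96 without and 3.94, 5.05, 4.58 and 4.36 with vitamin C, so the groups lay well apart, and the call was lost without day 4 or day 5. In the course with vitamin C 9 of the 54 passed, against 8.64% of all genes in either direction: Klk6, Klk8, Klk9, Lce3c, Lce3f, Aldh1a3, Per1 and Mxd1 rose and Cntrob fell. In the course without vitamin C, 0 of the 54 did by limma, with 10 at an unadjusted p under 0.05.

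Of 28 regulators of epidermal differentiation, 2 were called higher with vitamin C in the effect over days. Grhl2, a Grainyhead factor of epithelial genes, was higher by 1.52 ± 0.21 and Ovol1, a repressor that acts in late keratinocytes, by 1.19 ± 0.18 (moderated SEs, limma adjusted p = 0.0208 and 0.0246). Grhl2 read between 4.05 and 4.21 in all untreated arrays and 4.78, 5.48, 6.06 and 6.23 with vitamin C, a course like that of Cers3. In the course with vitamin C 8 of the 28 rose, Prdm1 (1.06 per day), Notch3 (0.65), Elf3 (0.60), Barx2 (0.58), Grhl2 (0.49), Ovol1 (0.47), Gata3 (0.43) and Kdf1 (0.26). Without vitamin C 4 rose, Prdm1 (0.67), Elf3 (0.59), Barx2 (0.54) and Grhl3 (0.41). Of all genes 5.25% rose with vitamin C and 0.782% without it. The calls of Grhl2 and Ovol1 were each lost in 3 of 11 settings, leaving out day 4 or 5 among them, and the 8 became 4 without day 3 and 2 without day 6.

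No measured keratinocyte marker passed the test over days. Of 20 listed, 17 were measured, and filaggrin (Flg), Dsg1a and Dsc1 were not. Of these 17 keratinocyte markers 0 passed limma over days (3 higher and 2 lower at an unadjusted p under 0.05), with a median of -0.04. The smallest p was that of Calml3, a calmodulin-like gene of epithelia, at 0.83 ± 0.18 (moderated SE, limma adjusted p = 0.0779), and 1 of the 17 was called higher without day 3. Krt1 differed by 0.83 and Sfn by 0.34, both at an unadjusted p under 0.05. Trp63, the master regulator of stratified epithelia, read between 3.96 and 4.15 without and between 3.76 and 4.28 with vitamin C. Loricrin (Lor), the main envelope protein, differed by -0.47 ± 0.13 (moderated SE, limma adjusted p = 0.174), involucrin (Ivl) by -0.22, and the keratin genes Krt5, Krt14 and Krt10 by -0.08, -0.24 and -0.02. In the course with vitamin C the keratin genes Krt16 (0.71 per day) and Krt1 (0.66) rose, and the desmoglein gene Dsg3 fell (-0.65). Without day 6 Dsg3 alone passed. Of all genes 5.25% rose and 3.39% fell in that course with all days kept. The summed linear signal of the keratinocyte list ran from 1250 to 1660 without and from 1300 to 1840 with vitamin C. The difference grew with day past the threshold in 0 genes of this list and of the 6 pathway lists (limma). At an unadjusted p under 0.05 it had 3 higher and 1 lower of the keratinocyte markers, 10 and 3 of the cornified envelope genes, 7 and 1 of the barrier lipid genes, 11 and 0 of the proteases and 5 and 1 of the regulators. The name given to the 10 states their role in skin and is not used here as the name of a cell type.

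**Figure D4:**
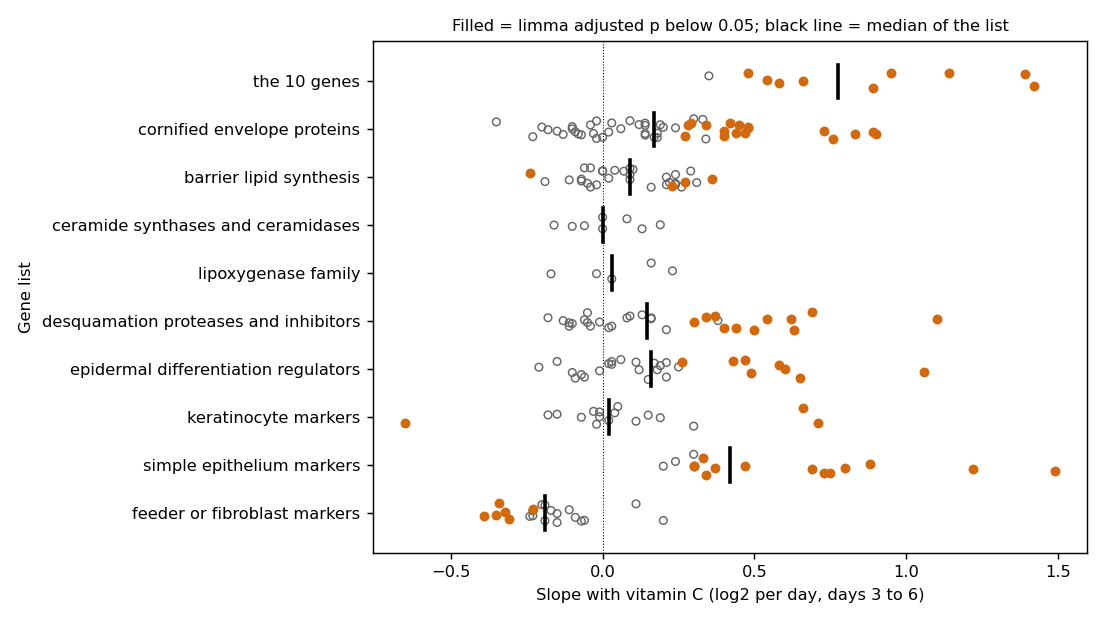
Slope with vitamin C (horizontal axis, log2 per day over days 3 to 6) of the 10 genes and of every gene of 9 lists (vertical axis), filled where limma's adjusted p was below 0.05, with the median of each list as a black line. The 10 were picked with these values known. The medians were 0.17 for cornified envelope proteins, 0.02 for keratinocyte markers and 0.42 for simple epithelium markers.

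Several markers of simple epithelium passed. Of 16, 4 were called higher with vitamin C in the effect over days (Cldn4 by 1.22, Rab25 by 1.13, Cldn6 by 1.07 and Cldn7 by 0.87). The median difference of the 16 was 0.62, and 13 rose with day in the arrays with vitamin C, where 5.25% of all genes rose. The 4 calls were lost without day 4 or day 5, and the 13 became 8 without day 3 and 3 without day 6. Their summed linear signal ran from 3220 to 7120 without and from 3760 to 12800 with vitamin C. Of 12 trophoblast markers Elf5 was called higher in the effect over days (0.94), and 7 rose with day with vitamin C. Of 15 pluripotent cell markers 5 were called higher in the effect over days, with a median of 1.01 over the list, and 10 rose with day with vitamin C. Leaving out day 4 lost the call of Elf5 and left 2 of the 5, and leaving out day 5 lost it too and left 3. Leaving out day 6 turned the 7 into 0 and the 10 into 4, and leaving out day 3 turned each into 4.

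Feeder cells were removed after trypsin treatment, per the labels' protocols. Feeder or fibroblast markers had a median difference of -0.37 over 21 genes and 2 of them, Col5a2 (-0.73) and Vim (-0.63), called lower, both calls being lost without day 4, day 5 or day 6. With day, 9 of the 21 fell without vitamin C (median slope -0.35 per day) and 6 with it (-0.19). Of all genes 0.968% and 3.39% fell. The 9 and the 6 became 0 without day 6, and the 6 also became 0 without day 3 and 1 without day 5. From day 3 to day 6 their median difference ran through -0.51, -0.60, -0.38 and -0.14. Their summed linear signal ran from 5700 to 9130 without and from 5210 to 5840 with vitamin C. The part of these other cells in the values of the 10 genes was not tested. In such bulk samples, fewer cells of a type and less RNA per cell cannot be told apart.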

How the data were processed

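Expression was measured on 8 Affymetrix whole-transcript arrays from 100 ng of total RNA each. The authors deposited log2 values, and the submitters' processing notes name RMA and Partek, without a version in the sources used here. Their log base was taken from the largest value, 13.8, which lies above the natural log (11.1) and under the log2 (16.0) of the largest 16-bit reading. No detection calls were used. Whether low values, such as those of Acer1, Aloxe3 and the neighbour Acsbg3, lie above background is therefore unknown. Array medians lay between 4.33 and 4.40, arrays correlated with 0.977 to 0.994, and precision is limited by how few arrays there are.

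The platform annotation gave 1 symbol to 21789 of 28853 probe sets, 21698 of them with a gene identifier in the RefSeq table of GRCm38.p6. The probe set with the highest mean was kept for each of 19938 genes. limma 3.58.1 (R 4.3.3) gave two-sided moderated tests, adjusted by Benjamini-Hochberg over all genes and called below 0.05. For the effect of vitamin C, day entered as a factor, which pairs the 2 arrays of a day. The growth of the difference and the slopes came from 1 model with a slope on day per treatment. The labels give the day that pairs arrays, and deviations within such pairs correlated with 0.371, 0.180, 0.125 and 0.475 on days 3, 4, 5 and 6. On days 3 and 6 the array with vitamin C was closest to its own pair. That of day 4 was closer to untreated day 3 (0.216), and that of day 5 to untreated day 6 (0.272). The fits were tested on simulated data. Python 3.11.15, pandas 2.3.3 and matplotlib 3.10.9 made tables and plots.

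The members and lists were chosen with earlier results of these data known. Named by rule were all members, and from each pathway list every gene that passed or else the 2 with the smallest p. The rule also named neighbours that passed and the 2 genes most correlated with each member. The latter had an SD of at least 0.4 over arrays, with predicted genes left out. It did not cover the lists of cell type markers. Other names were chosen after seeing values. Alternatives changed normalization, centring, filtering, averaging, moderation or the use of day, or left out a day.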

Additional observations from a re-analysis of the deposited data

Results flagged for a closer look

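The difference of Asprv1 between arrays with and without vitamin C grew by 0.99 per day on the log2 scale with day slopes of 0.43 without and 1.42 with vitamin C over 4 arrays each. It is listed because its growth with day was among the calls of limma, but the gene was picked with these values known, so the call restates the choice. No gene passed when any single day was left out (limma, 1320 to 2439 genes at an unadjusted p under 0.05).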

How the results depend on the processing

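The mean differences of all 10 genes kept their sign, and none moved by more than its SD over days, under all 7 alternatives run for them. Leaving out 1 of the 4 days cannot move a mean by its SD, nor turn a sign at these means and SDs. Averaging probe sets changes nothing with 1 probe set per gene. The checks that could have failed were quantile normalization and centring. These gave 2.07 and 2.05 for Asprv1, and 1.13 and 1.12 for Crct1. Over all 7 alternatives the ranges were widest for Asprv1 (1.53 to 2.49) and Crct1 (0.78 to 1.54). The ends of both ranges came from leaving out day 3 or day 6. In the alternatives 9 or 10 genes were higher on all days kept. Each had 1 probe set, so another probe set could not be tried.

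Counts over all genes depended more on the settings. For the vitamin C effect over days, 150 genes became 17 without the replicate block (day left out), 291 with day as a number and 376 with trend and robust options, and 3 to 286 with a day left out. For the growth of the difference, 13 became 20 with the replicate block, 21 after quantile normalization, 20 without the dimmest 25% and 80 with trend and robust options, and 0 to 0 with a day left out (limma, adjusted p). The untreated slopes gave 349, 782 with trend and robust options and 91, 252, 144 and 1 without day 3, 4, 5 and 6. The slopes with vitamin C gave 1722, and 627, 1549, 674 and 167 in the same order. Leaving out a day leaves 2 residual degrees of freedom. The cause of the other shifts was not tested.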
